A study of Bos taurus with 6 samples.

Results

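The extracellular vesicles (EVs) of bovine oviductal organoids were examined for 3 of the 1028 mature miRNAs in the deposited table, bta-miR-202, bta-miR-1388-5p and bta-miR-1388-3p. They were chosen by name, and the names had been picked because bta-miR-202 and bta-miR-1388-5p stood higher in the libraries at 42 °C. The difference between the temperatures was therefore used to choose them, and its values, the calls of the fit included, are given as a description and not as evidence of a difference. The arm bta-miR-1388-3p was included as the partner of bta-miR-1388-5p.

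The organoids are self-organised cultures of epithelial cells from the oviducts of diestrus cows obtained at slaughter. The 3 heat stress (HS) libraries, replicates A, B and C, came from EVs of organoids that spent their final day of culture at 42 °C. The 3 thermoneutral libraries, also replicates A, B and C, came from EVs of organoids that stayed at 37 °C. Both groups had been expanded at 37 °C and then placed in a synthetic matrix, no transgene or drug set them apart, and 2 animals were pooled for every replicate. Values below run in the order of replicates A, B and C. The study states that the same oviducts were represented at both temperatures, but does not say which libraries share animals, so the libraries were compared unpaired. EVs were collected from the conditioned medium by ultracentrifugation and a size exclusion column, and the values are relative to the reads of each library. They do not measure the number of EVs, and a change in which EVs were released cannot be told apart from a change in the miRNA carried per EV.

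A miRNA is cut from a hairpin precursor with a 5p and a 3p arm. One arm, the guide, is usually kept by an Argonaute protein and represses mRNAs that pair with its seed, while the other arm, the passenger, is usually degraded. miR-202 is known as a miRNA of the gonads, found in the supporting cells of the testis and ovary, and in medaka, a fish, its loss impairs egg production. miR-1388 is annotated in cattle and in fish, and its function is little known. In the RefSeq gene table of ARS-UCD2.0 each of the 2 hairpins stands apart from other miRNA genes, with 0 further miRNA genes within 10 kb. MIR202 lies next to LOC101903854 and UTF1 and inside the interval of the entry SORCS3, and MIR1388 lies between UCKL1 and DNAJC5.

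The deposited values are counts per 1000000 reads (CPM) adjusted by TMM factors. Divided by the smallest value above 0 of its library, 100% of the values came out whole within 0.01, so the reads behind them were recovered. The libraries held 72580 to 213877 miRNA reads at 42 °C and 31640 to 150214 at 37 °C. A single read was worth 5.53 to 28.7 CPM at 42 °C, with replicate C the highest, and 5.87 to 17.0 CPM at 37 °C, with replicate A the highest. The most abundant miRNA, bta-miR-1246, took 26.7 to 71.8% of the reads at 42 °C, highest in replicate C, and 25.0 to 50.0% at 37 °C. Of 10 listed epithelial miRNAs, such as the miR-200 family, 9 had a row and all 9 had reads. Their summed level was 14789.9 to 29195 CPM at 42 °C and 14065 to 21389 CPM at 37 °C. Having reads does not mark a cell type here, since every listed leukocyte, erythroid, liver, stromal and muscle miRNA had some too. None of the 9 epithelial miRNAs was called between temperatures by limma, edgeR or DESeq2 (0 at an unadjusted p under 0.05, median log2 fold change 0.19). Of 7 miRNAs of multiciliated cells, 5 had reads, summed at 99.6 to 258 CPM at 42 °C and 102 to 323 CPM at 37 °C, and of the 4 tested 0 were called by any of the 3 tools (0 at an unadjusted p under 0.05, median -0.30). Intervals on reads are at 95% and, like the limit of 3 reads that a count of 0 allows, they cover counting error only.

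bta-miR-202 was present in all libraries and was higher in each one at 42 °C. Its level was 397, 343 and 862 CPM in the 42 °C libraries, against 51.0, 41.1 and 36.9 CPM in the 37 °C libraries. The groups did not overlap, and replicate C was the highest library at 42 °C. The means were 534 ± 285 CPM at 42 °C and 43.0 ± 7.23 CPM at 37 °C (SD, n = 3 each). The coefficient of variation in CPM was 53.4% at 42 °C and 16.8% at 37 °C.

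The reads behind bta-miR-202 numbered 50, 62 and 30 at 42 °C and 3, 7 and 5 at 37 °C. Replicate C at 42 °C thus had the highest CPM from the fewest reads of its group, a read there being worth the most CPM. As a share of all miRNA reads, bta-miR-202 took 482, 290 and 413 reads per 1000000 (RPM) at 42 °C (Wilson intervals 365 to 635, 226 to 372 and 290 to 590). At 37 °C it took 94.8, 46.6 and 35.7 RPM (Wilson intervals 32.2 to 279, 22.6 to 96.2 and 15.2 to 83.6). On this scale replicate A was the highest at 42 °C, and the order of the spreads was reversed, with a coefficient of variation of 24.6% at 42 °C and 53.3% at 37 °C. The interval of replicate A at 37 °C, which rests on 3 reads, overlapped that of replicate B at 42 °C, and all other intervals were separate between the temperatures.

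bta-miR-1388-5p was found at 42 °C only. Its level was 334, 227 and 1321 CPM in the 42 °C libraries, and it was at 0 in all 3 libraries at 37 °C. Its mean at 42 °C was 627 ± 603 CPM (SD, n = 3), and replicate C stood 5.82 times above replicate B. The value of 3 reads, up to which a library with none could stand, was 51.0, 17.6 and 22.2 CPM for the 37 °C libraries, below the lowest library at 42 °C. No read was detected at 37 °C at this depth, which does not show that the miRNA was absent.

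The reads of bta-miR-1388-5p were 42, 41 and 46 at 42 °C. As a share of all miRNA reads these were 405, 192 and 634 RPM (Wilson intervals 299 to 547, 141 to 260 and 475 to 845). Replicate B, the deepest library, was the lowest, and its interval was separate from those of replicates A and C. At the share of replicate B, 6.07, 28.8 and 26.8 reads would have stood in the 37 °C libraries, where 0 were found. The 37 °C library in which its absence says least was therefore replicate A, the shallowest.

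bta-miR-1388-3p, the other arm of the same hairpin, was close to absent. It had no read in the 3 libraries at 42 °C and none in replicates A and B at 37 °C, and 2 reads in replicate C at 37 °C (14.8 CPM). The value of 3 reads was 16.6 to 86.2 CPM at 42 °C and 17.6 to 51.0 CPM at 37 °C, so both groups lay under the limit of the depth, and no fold change is given. It did not reach a mean of 10 CPM in either group and so was left out of the tests. The plot of deposited values shows the 3 miRNAs side by side.

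**Figure D1:**
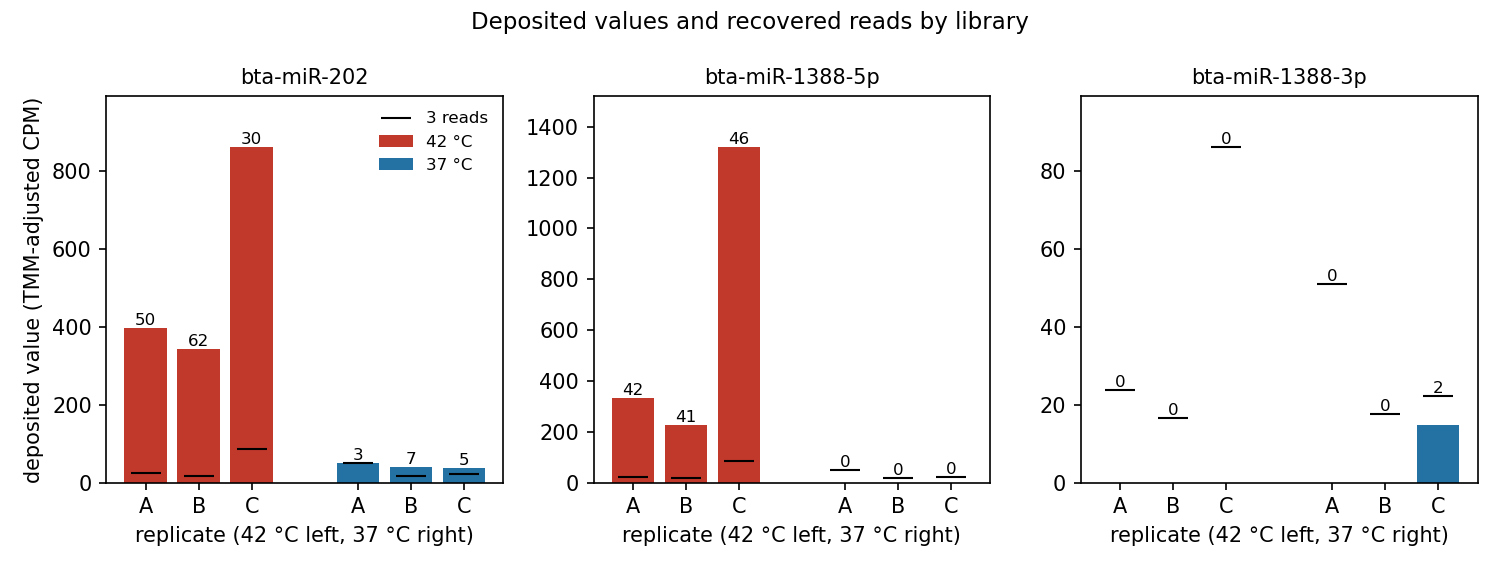
Deposited values (TMM-adjusted CPM, linear axis from 0) of bta-miR-202, bta-miR-1388-5p and bta-miR-1388-3p by replicate (A, B, C) at 42 °C (red, left) and 37 °C (blue, right). Numbers are recovered reads and black ticks mark the value of 3 reads in each library. Replicate C at 42 °C is the highest bar for bta-miR-202 (862 CPM) and bta-miR-1388-5p (1321 CPM), while the reads behind these bars are 30 and 46.

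**Figure D2:**
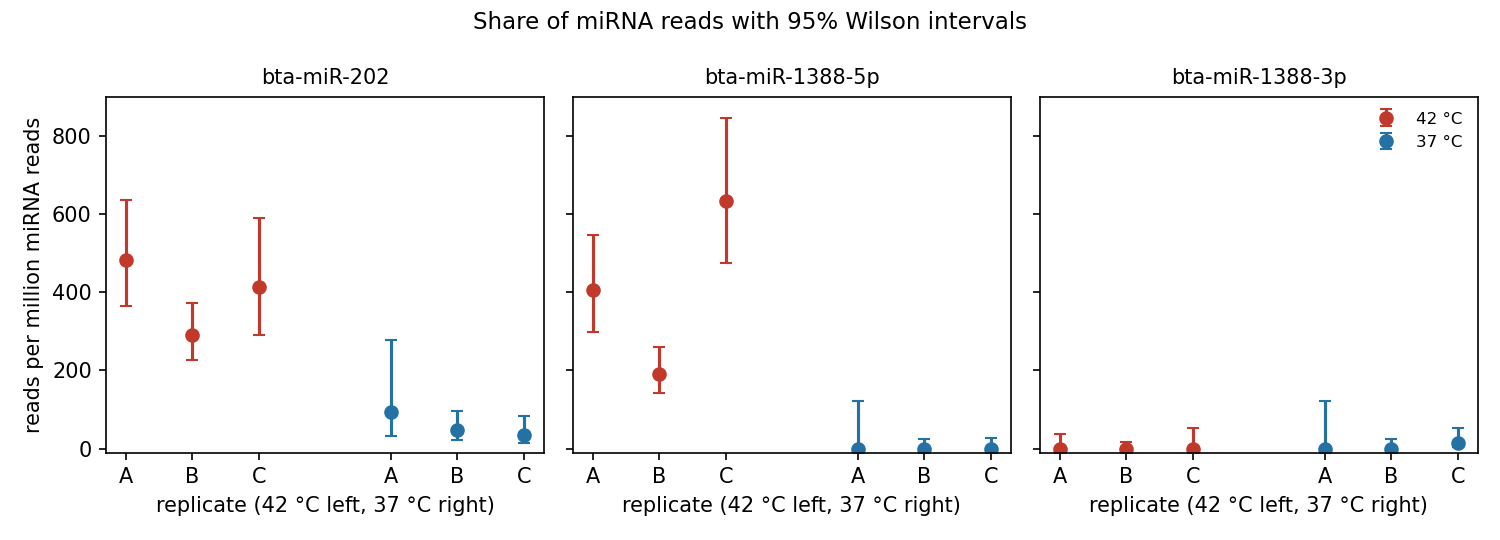
The same 3 miRNAs as reads per 1000000 miRNA reads (RPM, linear axis) with 95% Wilson intervals, replicates A, B and C at 42 °C (red, left) and at 37 °C (blue, right). For bta-miR-202 replicate A leads at 42 °C with 482 RPM, and replicate A at 37 °C has a wide interval, from 32.2 to 279.

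The reads of miR-1388 at 42 °C came from the 5p arm in 129 of 129 cases (100%, exact interval from 97.2%). With 0 reads of the 3p arm, the simpler limit of 3 reads put its share there at up to 2.33%, a little tighter than the exact interval. At 37 °C the hairpin had 2 reads in all, both of the 3p arm, which is too few to say which arm led. The table held both arms for 82 hairpins. Of these, 13 had at least 100 reads at 42 °C, and in 10 of the 13 the lesser arm took under 3%. The lesser arm was at 0 for 5 of the 13, namely bta-miR-21, bta-miR-99a, bta-miR-9, bta-miR-425 and bta-miR-1388. A strong lead of 1 arm was thus shared by most hairpins of similar or greater depth.

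Between the temperatures, the log2 fold change was 3.25 for bta-miR-202 (standard error 0.61) and 5.58 for bta-miR-1388-5p (standard error 0.81), on the scale of log2(CPM + 10), which understates the change of low miRNAs. These come from limma over the 251 miRNAs whose mean reached 10 CPM at 42 °C or at 37 °C, which 2 of the 3 members reached, and 1 of these 2 through 42 °C alone. Both were called higher at 42 °C at the threshold used (adjusted p under 0.05 and at least 2-fold), as were 4 of 251 miRNAs (1.59%), while 2 (0.797%) were called lower. These 6 calls became 1 without replicate B and 3 without replicate C at 37 °C. Neither member was called without replicate B at 37 °C, and bta-miR-202 was also not called without replicate C at 37 °C. All libraries at 42 °C lay above all at 37 °C for 25 of 251 (9.96%), both members included. Nothing is read from these counts, since the members were chosen on the same values. The median log2 fold change of all 251 was -0.01.

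In the order of log2 fold changes bta-miR-1388-5p came at place 2, below bta-miR-150, a miRNA of mature lymphocytes (6.50, standard error 0.65), and above bta-miR-92a of the miR-17-92 cluster (4.17, standard error 0.53). bta-miR-202 came at place 4, between bta-miR-92a and bta-miR-223, a myeloid miRNA (3.11, standard error 0.78). The gap between bta-miR-202 and bta-miR-223 was smaller than the standard error of either. Both bta-miR-150 and bta-miR-92a passed the test (adjusted p = 4.87e-05 and 3.52e-04, limma), and bta-miR-223 did not (adjusted p = 0.051, limma). Without replicate B at 37 °C bta-miR-92a did not pass (adjusted p = 0.053, limma), while bta-miR-150 passed under all 17 alternatives.

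The 2 members were of middling abundance. By mean CPM at 42 °C, bta-miR-1388-5p ranked 70 and bta-miR-202 ranked 74, and their means differed by less than their spread. Next to bta-miR-1388-5p in level stood bta-miR-103 (659 ± 231 CPM at 42 °C, SD, n = 3) and bta-let-7e (597 ± 277 CPM), and next to bta-miR-202 stood bta-miR-2478 (547 ± 263 CPM) and bta-miR-1307 (531 ± 119 CPM). None of these neighbours differed from the member beside it by more than the spread of either. At 37 °C bta-miR-202 ranked 149, between bta-miR-491 (46.0 ± 42.9 CPM) and bta-miR-106b (42.8 ± 42.1 CPM), again within the spread. Within single libraries bta-miR-202 ranked 73, 85 and 57 in the 42 °C libraries and 144, 156 and 151 in the 37 °C libraries. bta-miR-1388-5p ranked 76, 100 and 45 at 42 °C.

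**Figure D3:**
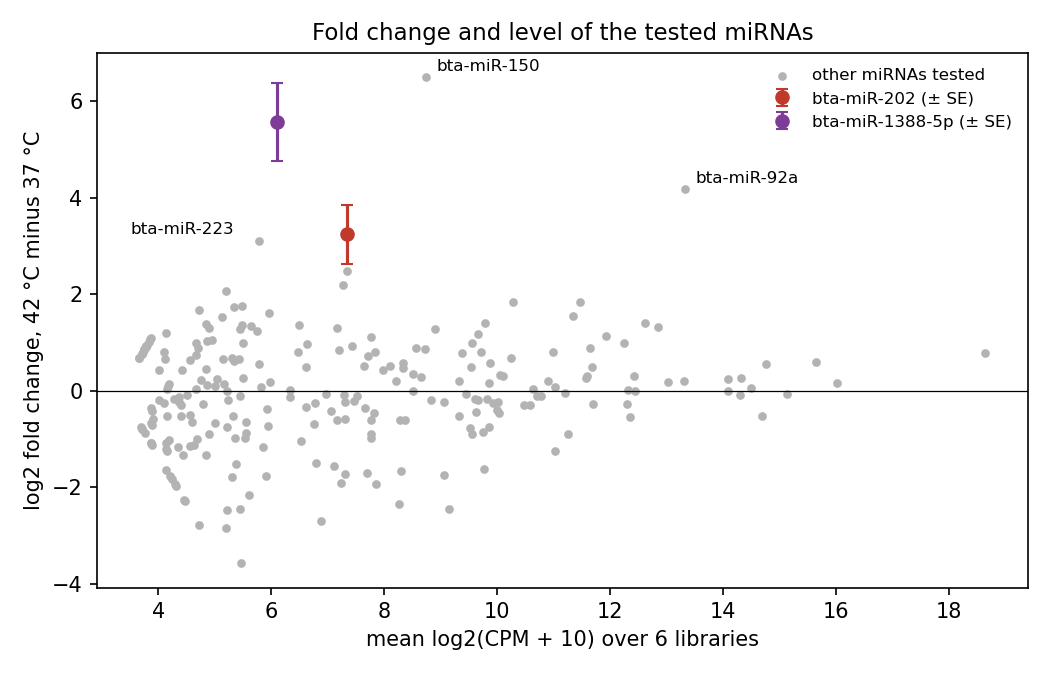
Log2 fold change (42 °C minus 37 °C) against mean log2(CPM + 10) over the 6 libraries for the 251 miRNAs tested, with bta-miR-202 (red) and bta-miR-1388-5p (purple) and their standard errors. The 2 members lie at places 4 and 2 by fold change, beside bta-miR-150 and bta-miR-92a.

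How much higher the 2 miRNAs stood depended on what the reads were set against. For bta-miR-202 the pooled reads gave 10.1 times more at 42 °C on the deposited TMM scale (exact interval 5.92 to 18.5), with 142 reads at 42 °C and 15 at 37 °C. Against all miRNA reads the ratio was 7.81 (4.58 to 14.3), and against miRNA reads other than miR-1246 it was 6.70 (3.93 to 12.3). For bta-miR-1388-5p, 129 reads at 42 °C were set against 3 reads allowed over the group at 37 °C. This gave a level 45.9-fold higher at 42 °C on the deposited scale. Against all miRNA reads it gave 35.5-fold, and against those other than miR-1246 it gave 30.5-fold. These values leave out the counting error of the 129 reads, so they are not strict lower limits. The direction, on which the members were chosen, was the same on each of these scales.

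The distance between the groups also depended on the scale. The lowest library at 42 °C, replicate B, stood 6.72 times above the highest at 37 °C, replicate A, for bta-miR-202 on the deposited scale, and 3.06 times as a share of all miRNA reads. For bta-miR-1388-5p, replicate B at 42 °C stood 4.45 times above the limit of 3 reads in replicate A at 37 °C on the deposited scale, and 2.02 times as a share of all miRNA reads. Replicate A at 37 °C, with 31640 miRNA reads, was the edge of its group on both scales. Against the quality-controlled reads of the whole libraries, the edges were other libraries. The gap there was 4.63 times for bta-miR-202 (replicate C at 42 °C over replicate B at 37 °C), and it was wider for bta-miR-1388-5p, at 12.1 times (replicate A at 42 °C over the limit of 3 reads in replicate C at 37 °C). The groups stayed apart on these 3 scales.

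The miRNAs whose values over the 6 libraries were most like the members were sought by the mean absolute difference of log2(CPM + 10), each miRNA centred on its own mean. For bta-miR-202 these were bta-miR-92a (0.50), bta-miR-223 (0.50) and bta-miR-16a (0.54), a miRNA of the miR-15/16 family. For bta-miR-1388-5p they were bta-miR-150 (0.51), bta-miR-92a (0.70) and bta-miR-202 (1.16). By this measure the members were less like each other than each was to bta-miR-92a. Among the miRNAs most like bta-miR-202, bta-miR-1388-5p came at place 33. The measure largely follows the fold change on which the members were chosen. For bta-miR-1388-5p, at 0 at 37 °C, it also depends on the 10 added to each value, so no conclusion is drawn from this order. bta-miR-16a did not pass the test between temperatures (2.48 on the log2 scale with a standard error of 0.63, adjusted p = 0.051 by limma).

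**Figure D4:**
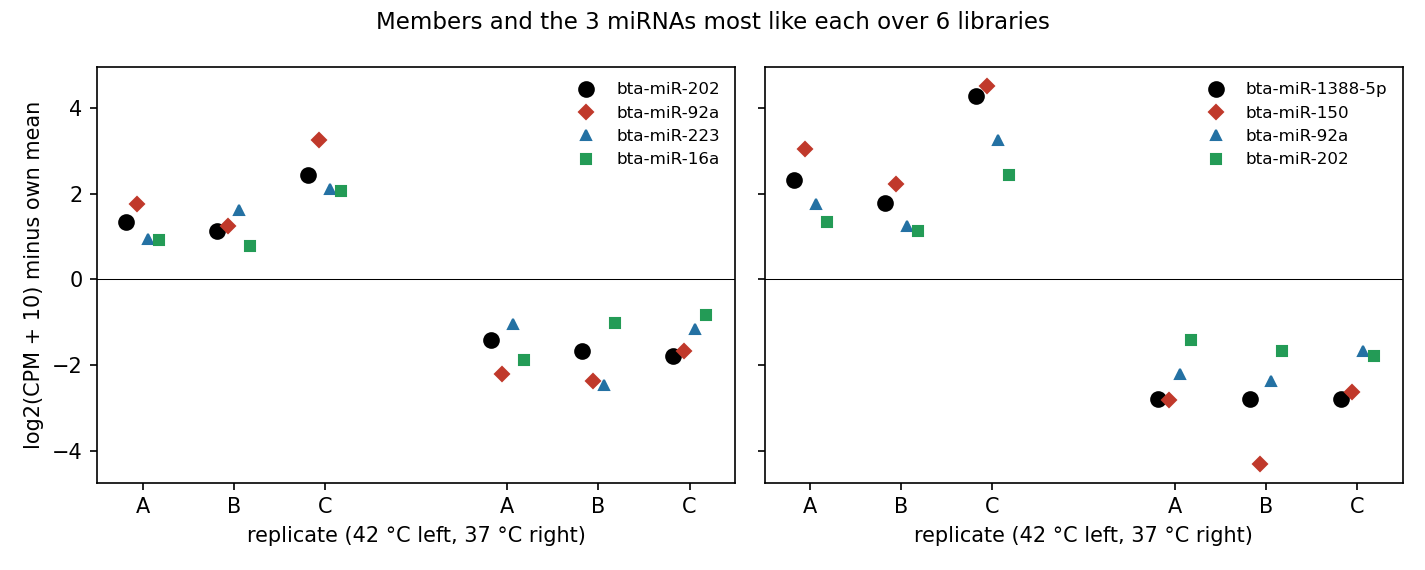
Values of log2(CPM + 10) minus each miRNA's own mean over 6 libraries, for bta-miR-202 (left) and bta-miR-1388-5p (right, both in black) with the 3 miRNAs most like each; replicates A, B and C at 42 °C stand left of those at 37 °C. Replicate C at 42 °C is the highest value for both members and for the miRNAs shown with them.

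Ratios within a library do not depend on the scaling. At 42 °C there were 1.19, 1.51 and 0.652 reads of bta-miR-202 for each read of bta-miR-1388-5p (exact intervals 0.774 to 1.84, 1.00 to 2.30 and 0.397 to 1.06). Replicate C alone had fewer reads of bta-miR-202 than of bta-miR-1388-5p, and its interval overlapped those of both other libraries. At 37 °C, 15 reads of bta-miR-202 stood against 0 of bta-miR-1388-5p.

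The ratio of bta-miR-1388-5p to bta-miR-150 varied less between these libraries. There were 10.5, 8.73 and 7.33 reads of bta-miR-150 for each read of bta-miR-1388-5p in the 42 °C libraries. Over these libraries the ratio the other way round was 0.114, and the exact interval at 37 °C, where bta-miR-150 had 3, 2 and 8 reads and bta-miR-1388-5p had 0, ran from 0 to 0.328 and included it. That interval rests on 13 reads of bta-miR-150 and is wide, so the inclusion says little. For bta-miR-202 the pooled intervals of the temperatures did not overlap. Those of some single libraries did, such as replicate A at 37 °C (0.134 to 7.47) and replicate A at 42 °C (0.0831 to 0.152). Over the libraries at 42 °C it had 0.125 reads for each read of bta-miR-150 (exact interval 0.104 to 0.149), against 1.15 at 37 °C (0.512 to 2.63). In pooled reads set against bta-miR-92a, the members stood the other way round. For bta-miR-202 there were 0.0116 reads for each read of bta-miR-92a at 42 °C (exact interval 0.00974 to 0.0137) and 0.0166 at 37 °C (0.00923 to 0.0275), and the intervals overlapped. For bta-miR-1388-5p the pooled ratio was 0.0105 at 42 °C (0.00878 to 0.0125) and 0 of 906 reads at 37 °C (up to 0.00408). These pooled intervals were separate. By single library only those of replicate C at both temperatures were separate (0.00976 to 0.0179 at 42 °C, up to 0.00848 at 37 °C). Pooling treats the libraries of a group as 1. The members were also chosen on the difference between temperatures, so no difference is read from these intervals.

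The number of reads of bta-miR-1388-5p barely differed between the libraries at 42 °C, although these libraries differed in depth. The highest count was 1.12 times the lowest, while all miRNA reads differed 2.95 times and those other than miR-1246 differed 7.65 times. Among the 90 miRNAs with at least 100 reads at 42 °C, this was the smallest ratio, and the median was 6.09. bta-miR-202, with a ratio of 2.07, was at place 14. Without replicate A or without replicate C at 42 °C, bta-miR-1388-5p came at place 7. This comparison was chosen after the values were seen and has no test.

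Few other miRNAs had so even a number of reads. A ratio under 1.5 was found for 7 of the 90, namely bta-miR-1388-5p, bta-miR-9-5p (1.19), bta-miR-92a (1.28), bta-miR-206 (1.30), bta-miR-150 (1.31), bta-miR-1260b (1.33) and bta-miR-1246 (1.37). Of these 7, 4 were higher in all libraries at 42 °C than in any at 37 °C. Over the 17 of the 90 miRNAs that were higher in all libraries at 42 °C the median ratio was 2.45, and over the other 73 it was 6.35. This split is not independent of the ratio, since a low library at 42 °C tends to keep a miRNA out of the 17. Both members are among the 17, so nothing is read from it. At the other extreme, bta-miR-451, the main miRNA of red blood cells, had 1720, 28903 and 619 reads in the same libraries. Its ratio of 46.7 was the highest among the miRNAs with reads in each of them.

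The spread of bta-miR-1388-5p changed with the scale. The residual SD of its log2 values within the groups was 0.93 on the deposited scale, 0.60 with each library scaled to the same sum of miRNA reads, 1.08 when miR-1246 was left out of that sum, and 0.10 when scaled to the quality-controlled reads of the whole library, miRNA or not. For bta-miR-202 it was 0.51, 0.51, 0.71 and 0.48. The part that depth, the TMM factors or the other RNA of the libraries had in these patterns was not tested. Whether any of the even numbers of reads were carried over between libraries sequenced together was also not tested, and it would bear on what these reads count.

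**Figure D5:**
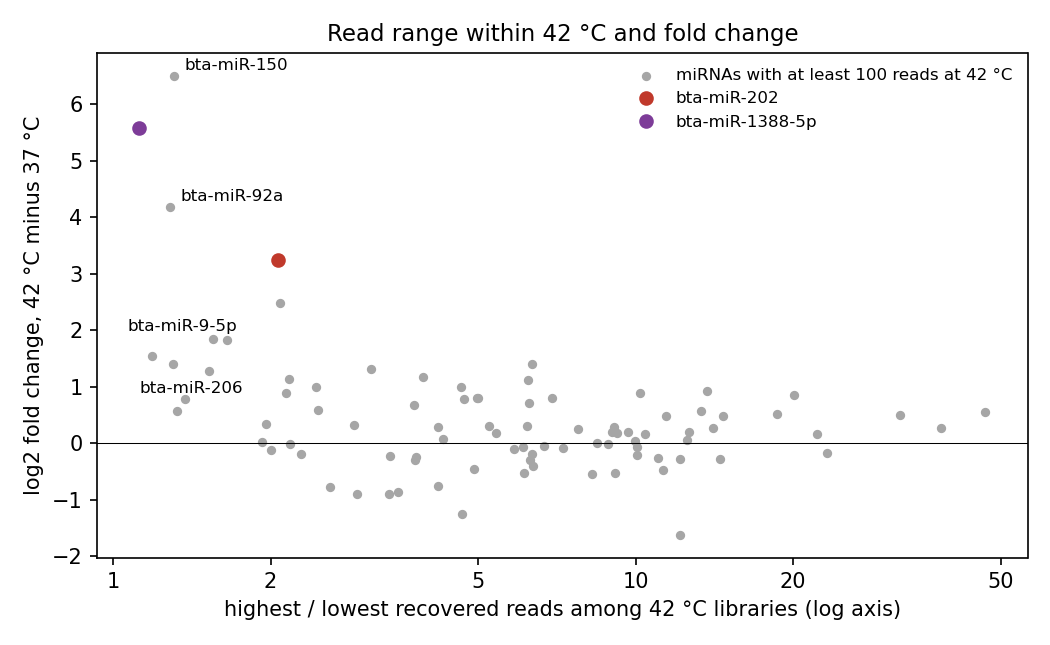
Highest over lowest recovered reads among the 3 libraries at 42 °C (log axis) against the log2 fold change (42 °C minus 37 °C) for the 90 miRNAs with at least 100 reads at 42 °C. bta-miR-1388-5p (purple) has the smallest ratio, 1.12, and bta-miR-202 (red) stands at 2.07, where the median is 6.09.

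None of the other miRNAs of the gonads and of germ or embryonic cells that were tested passed the test. Of 18 listed, 13 had a row, 9 had at least 1 read and 4 were tested (limma, with 0 of 4 at an unadjusted p under 0.05, and 0 called by edgeR or DESeq2), with a median log2 fold change of 0.06. Most of the reads of this list were of 2 miRNAs. bta-miR-34c, of germ cells and of ciliated cells, stood at 145 ± 59.2 CPM at 42 °C and 175 ± 90.2 CPM at 37 °C (SD, n = 3 each; adjusted p = 0.89, limma). bta-miR-184 stood at 444 ± 263 CPM at 42 °C and 344 ± 179 CPM at 37 °C (adjusted p = 0.81, limma). The embryonic miR-302 cluster was almost absent, with 0, 1 and 1 reads of bta-miR-302c in the 42 °C libraries and 0 in each library at 37 °C.

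Some miRNAs of blood cells were also higher at 42 °C. All 7 listed leukocyte miRNAs had reads, with a summed level of 6256 to 14216 CPM at 42 °C and 2364 to 2711 CPM at 37 °C. Of the 6 tested, 1 was called higher, bta-miR-150 with 440, 358 and 337 reads in the 42 °C libraries, and 5 were not (edgeR and DESeq2 each called 2). The log2 fold change was positive for all 6, and 3 had an unadjusted p under 0.05 in limma, beside 44 of all 251 miRNAs. Among the defining markers, bta-miR-223 was at 0 in replicate B at 37 °C, and bta-miR-142-3p had 2 reads, both in replicate B at 42 °C. The general leukocyte miRNA bta-miR-142-5p did not pass (adjusted p = 0.66 by limma), with 27, 147 and 11 reads in the 42 °C libraries, against 15, 26 and 56 reads in the 37 °C libraries. The median log2 fold change was 0.87 over the 6, beside -0.01 over all 251.

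The 8 erythroid miRNAs summed to 51094 to 199823 CPM at 42 °C and 16446 to 51201 CPM at 37 °C, ranges that overlapped, with 1 called higher by limma, bta-miR-92a, and a median log2 fold change of 0.76. Of these 8, edgeR and DESeq2 each called 2, and 2 had an unadjusted p under 0.05 in limma. The liver miRNA bta-miR-122 stood at 8926 to 96614 CPM at 42 °C and 15632 to 25394 CPM at 37 °C and did not pass. The 9 stromal and muscle miRNAs, 8 of them tested, summed to 6128 to 18408 CPM at 42 °C and 4300 to 8572 CPM at 37 °C, with 0 called by limma, edgeR or DESeq2 (1 at an unadjusted p under 0.05, median 1.07). In replicate B at 42 °C, where bta-miR-451 and bta-miR-122 had most of their reads, bta-miR-202 and bta-miR-1388-5p were at their lowest of the 3 libraries at 42 °C, both in CPM and as a share of miRNA reads. That share is of a total that includes the reads of bta-miR-451 and bta-miR-122. Against quality-controlled reads the lowest was replicate C for bta-miR-202 and replicate A for bta-miR-1388-5p. In reads bta-miR-202 was highest in replicate B, with 62 against 50 and 30. The part of blood cell miRNAs in the levels of the members was not tested.

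Leaving out any 1 library could not change the direction, since the groups of both members did not overlap. Without replicate C at 42 °C, the log2 fold change was 2.85 for bta-miR-202 and 4.83 for bta-miR-1388-5p. Of the 11 other miRNAs that the study lists as higher at 42 °C, 2 were called (bta-miR-150 and bta-miR-92a) and 9 were not, and edgeR called 6 and DESeq2 called 9. All 11 had a positive log2 fold change and an unadjusted p under 0.05 in limma. The study chose that list on these libraries, so it is no independent evidence of direction. Apart from the sequencing, the study measured bta-miR-202 by real-time PCR, together with bta-miR-223, bta-miR-150 and bta-miR-92a. It describes the PCR samples as independent replicates and reports the same pattern in them. Those PCR measurements were not part of the values used here.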

How the data were processed

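Small RNA of EVs was sequenced in 6 libraries. In CLC Genomics Workbench the authors trimmed reads, matched them to miRBase entries for cattle and applied TMM normalization. The deposited table gives this signal as TMM-adjusted CPM. The submitters' notes also name bcl2fastq, Bowtie2 2.2.2, DESeq2 and the build ARS-UCD1.2, without roles. Recovered reads are whole multiples of the smallest value above 0, and p-values measure only the spread between these pools.

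The members and lists were chosen with earlier results of these data known. Groups were compared by limma 3.58.1 (R 4.3.3) on log2(CPM + 10), with the variance trend option and Benjamini-Hochberg adjustment over 251 miRNAs with a group mean of at least 10 CPM; the thresholds follow the study, whose negative binomial GLM needs counts. edgeR 4.0.16 and DESeq2 1.42.0 on recovered reads were alternatives, with other pseudocounts, filters and scalings, the replicate block and each library left out. limma and edgeR were tested on simulated data. Named miRNAs are the members, the 3 most like each, their neighbours in fold change and level, and the abundant or called miRNAs of the lists; those named for arms or even read numbers were chosen after their values were seen. The rules on shared seeds and on similar sequences were not applied. The study's supplement gave the quality-controlled reads used as divisor in 1 scaling. All 6 columns were used.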

Additional observations from a re-analysis of the deposited data

How the results depend on the processing

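Both members were chosen for standing higher at 42 °C, and their groups did not overlap. Their direction, the same under all 17 alternatives, is therefore no evidence. The log2 fold change was 2.55 to 3.59 for bta-miR-202 and 3.40 to 9.18 for bta-miR-1388-5p. It moved beyond the spread between libraries for bta-miR-202 with a pseudocount of 50 (2.55) and with each library scaled to the same sum (2.62). For bta-miR-1388-5p, at 0 at 37 °C, it moved with a pseudocount of 1 (8.86) or 50 (3.40), in edgeR (9.18) and in DESeq2 (8.44), where the value depends on what is put in place of 0. Scaled to quality-controlled reads, bta-miR-202 was not called. The 6 calls over all miRNAs became 10 with a minimum mean of 50 CPM, 10 without the variance trend, 11 in edgeR, 17 in DESeq2, 2 when scaled to quality-controlled reads (-0.25 in the median of all miRNAs), 20 (4 higher, 16 lower) when scaled to the same sum and 15 (4 higher, 11 lower) when miR-1246 was left out of that sum. Over all miRNAs the median was -0.57 with the same sum and -0.43 without miR-1246. Leaving out a library gave 1 to 9 calls, 1 without replicate B and 3 without replicate C at 37 °C. The replicate block gave 15. Correlations of the deviations between the temperatures were -0.06, 0.03 and -0.06 for replicates A, B and C. Between different letters they ran from -0.11 to 0.16. With so few libraries they cannot decide whether libraries of the same letter share animals. The even reads of bta-miR-1388-5p were at place 1 with a minimum of 50 or 20 reads and at place 7 without replicate A or replicate C at 42 °C; for bta-miR-202 the place was 14, and 16 to 25 under the alternatives, 25 without replicate B or C. These and the other scales of the read ratios were added after the values were seen. No fold change is given for bta-miR-1388-3p under any setting, since it lay under 3 reads in both groups. The depth limits statements on bta-miR-1388-5p at 37 °C most in replicate A, where 3 reads are 51.0 CPM.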

Other observations

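Among the 82 hairpins with both arms in the table, 43 had at least 1 read and 18 had at least 20 reads at each temperature. In 17 of these 18 the same arm led at 42 °C and at 37 °C. The exception was bta-miR-7857, with 47.2% of its reads from the 5p arm at 42 °C and 65.6% at 37 °C. miR-1388 was not among the 18, since it had 2 reads at 37 °C. bta-miR-423 kept the lead of its 5p arm, with 88.2% of 1751 and 234 reads (5p and 3p) at 42 °C and 75.1% of 1264 and 420 reads at 37 °C. These shares are descriptions of pooled reads and were not tested.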
